A study of Mus musculus with 20 samples.

Results

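The housing by genotype interaction compares, gene by gene, how the preoptic area of dnFGFR males differs with the sex of the cage partner and how that of control males does. It is the difference between opposite-sex (OS) and same-sex (SS) housed dnFGFR mice minus the OS to SS difference in control mice, on the log2 scale of expression. A positive value means that the OS level, relative to the SS level, was higher in dnFGFR than in control mice, and a negative value that it was lower. Of 25239 genes in the count table, 22187 had reads in these mice, and the 17445 expressed highly enough to be tested in one fit over all 20 mice are described here.

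There were 4 groups of 5 male mice, named by genotype (control or dnFGFR) and housing (SS or OS). dnFGFR mice carry a truncated, signaling-dead FGF receptor 1 whose expression is driven in GnRH neurons by a rat GnRH promoter, and the control mice shared their genetic background. All males were paired on postnatal day (PND) 20 and the preoptic area was collected on PND 320, after 300 days of cohabitation. The OS cages bred and raised litters, so that OS housing in these mice included mating and pups as well as a female partner. The samples were whole tissue blocks, in which more cells of a type and more RNA per cell cannot be told apart.

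GnRH neurons lie scattered in the preoptic area and drive the pituitary to release gonadotropins, and FGF signaling is needed for them to form and persist. The preoptic area is also a center for male sexual behavior and receives olfactory input about partners, steroid feedback from the testis, and glucocorticoid feedback from the adrenal gland. An interaction can arise in different ways: OS housing may move a gene in one genotype alone, move it in opposite directions, or bring to the level of one group a gene that already differed between the SS groups.

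Libraries held 32353578 to 39871353 counted reads (median 34991611). The first principal component held 16.2% of the variance and set replicate 5 of the dnFGFR OS group, at 69.25, apart from the other 19 libraries, at -29.75 (dnFGFR OS 2) to 15.97. These libraries also had the lowest quality weights in limma's voom fit, at 0.229 and 0.252. Values without dnFGFR OS 5 are therefore given for the leading genes and for many of the other results, and those without dnFGFR OS 2 for some.

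No gene passed an adjusted p of 0.1 for the interaction in edgeR's quasi-likelihood test (percent called 0), and the smallest Benjamini-Hochberg adjusted p was 0.963. DESeq2 and limma's voom with quality weights called 0 genes as well. At an unadjusted p below 0.05, edgeR gave 595 genes (3.41% of those tested), of which 266 (1.52%) were higher and 329 (1.89%) lower, where a uniform spread of p-values gives 872. DESeq2 gave 730 such genes and voom with quality weights 1502. Without dnFGFR OS 5 the test called 0 of 17558 genes, 455 had an unadjusted p below 0.05 (2.59%), and 323 of these were among the 595, each with the same sign. Without dnFGFR OS 2 it called 0 of 17571 genes, and 1987 (11.3%) had an unadjusted p below 0.05. Without both it called 0, and 1120 (6.32%) had one.

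The housing difference within each genotype, from the same fit, passed for 0 genes in control mice (percent called 0), with 752 at an unadjusted p below 0.05 (4.31%), and for 0 genes in dnFGFR mice (percent called 0), with 1990 (11.4%), of which 5.16% of all genes were higher and 6.25% lower. DESeq2 called 9 genes for the controls and 275 for the dnFGFR mice, and voom with quality weights 20 and 58. Without dnFGFR OS 2 edgeR called 1523 dnFGFR housing genes (8.67%) and 0 for the controls (percent called 0), and without dnFGFR OS 2 and 5 together 7 dnFGFR housing genes (0.0395%). With dnFGFR OS 5 alone left out it called 0 in either genotype (percent called 0), with 1563 dnFGFR (8.9%) and 918 control housing genes (5.23%) at an unadjusted p below 0.05. An excess in one genotype is not a difference between genotypes, which is what the interaction tests.

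The sizes of difference that 20 mice could bound were set by expression. The median SE of the interaction was 0.16 on the log2 scale over all genes. For 14127 genes (81.0%) the 95% interval lay wholly within 1 log2 unit of 0, and for 9539 (54.7%) within 0.5. For genes of 10 to 100 CPM (read counts scaled to TMM library sizes) the share within 0.5 was 78.9%, and for those under 1 CPM it was 0.0927%. An interaction of 1 log2 unit or more was thus outside the interval for most expressed genes, while for genes under 1 CPM only 3.94% of intervals lay within 1 log2 unit.

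The mice left out in turn moved the number of genes with p below 0.05 from 426, without dnFGFR SS 3, to 1987, without dnFGFR OS 2. The plot of these counts shows that leaving out dnFGFR OS 2, or dnFGFR OS 4 with 907 genes, took the number above 5% of the genes tested. All 595 genes kept their sign in each of the 20 fits that left out a mouse. They were picked on these same mice, which favors a kept sign, so this is a description and no independent check.

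**Figure D1:**
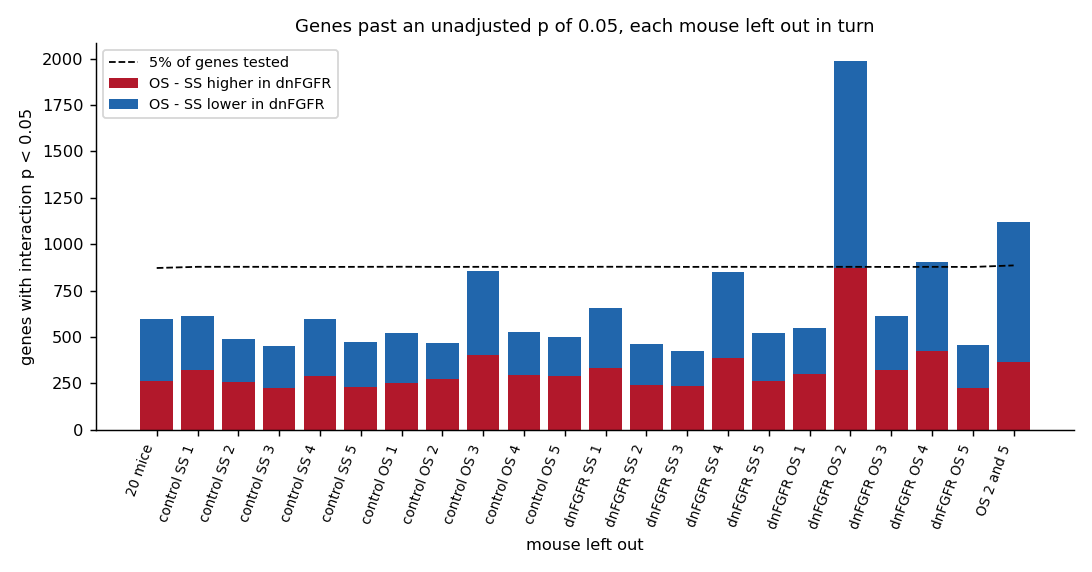
Number of genes with an unadjusted interaction p below 0.05 (y axis) in the 20 mice and with each mouse left out (x axis), split by direction, beside 5% of the genes tested (dashed line). Most bars lie under the line, 595 for all mice and 455 without dnFGFR OS 5, and the bar without dnFGFR OS 2 reaches 1987.

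The genes with the smallest p in the positive direction included a lipid receptor, an immune regulator, a serotonin receptor and transcription factors. None passed correction for multiple testing (the 24 leading genes had a Benjamini-Hochberg adjusted p of 0.963 in edgeR), and the values that follow are those of the 12 genes leading each direction among genes of at least 1 CPM. They were picked for their interaction, so their p-values are a description and support nothing on their own. Of the 24, 5 had control SS and OS values that did not overlap (1.59% of all genes tested) and 6 had dnFGFR values that did not (1.42%), a property tied to how they were picked.

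Lpar6 encodes a G protein-coupled receptor for lysophosphatidic acid. Its levels were 3.67, 5, 5.64, 5.22 and 4.51 CPM in control SS mice, 2.93, 3.42, 2.78, 4.17 and 3.12 in control OS mice, 3.13, 3.47, 3.96, 2.86 and 3.14 in dnFGFR SS mice, and 3.74, 4.61, 4.09, 3.61 and 4.67 in dnFGFR OS mice. In control mice 4 of the 5 OS values lay below every SS value, and in dnFGFR mice 3 of the 5 OS values lay above every SS value. The log2 OS to SS difference was -0.55 in control mice and 0.32 in dnFGFR mice, and the interaction was 0.87 (SE 0.20, 95% interval 0.45 to 1.29). It was 0.83 (SE 0.21) without dnFGFR OS 5. Lpar6 (GRCm38 chromosome 14, 73237895 to 73243294) lies on the opposite strand in an intron of the Rb1 gene, whose own interaction was 0.24 (SE 0.17), and how the counting treated strand is not given in the sources used here.

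Fgl2, which encodes fibrinogen-like protein 2, a secreted immunoregulatory protein, had 2.196, 3.82, 3.53, 3.92 and 3.36 CPM in control SS mice, 2.17, 2.25, 2.44, 2.47 and 2.36 in control OS mice, 3.04, 2.41, 3.17, 2.74 and 2.82 in dnFGFR SS mice, and 4.09, 4.71, 3.11, 2.88 and 3.97 in dnFGFR OS mice. All 5 control OS values fell in a narrow band, below 4 of the 5 control SS values, and 3 dnFGFR OS values lay above every dnFGFR SS value. The housing difference was -0.53 in control mice and 0.40 in dnFGFR mice, with an interaction of 0.93 (SE 0.23, 95% interval 0.46 to 1.40), or 0.92 (SE 0.24) without dnFGFR OS 5. The gene (chromosome 5, 21372642 to 21378374) sits in an intron of Ccdc146 on the other strand, and Ccdc146 had -0.30 (SE 0.44).

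Nkx2-2, a homeodomain transcription factor of the ventral neural tube and the oligodendrocyte lineage, showed a different arrangement. Its levels were 8.51, 8.98, 10.6, 11.4 and 11.5 CPM in control SS mice, 7.25, 6.42, 7.86, 7.099 and 8.04 in control OS mice, 5.97, 6.61, 6.45, 7.77 and 7.85 in dnFGFR SS mice, and 7.18, 6.87, 8.302, 6.61 and 8.83 in dnFGFR OS mice. Every control SS mouse lay above every control OS and dnFGFR SS mouse, and the lowest control SS mouse lay below the highest dnFGFR OS mouse. The interaction was 0.60 (SE 0.16, 95% interval 0.26 to 0.94) and 0.55 (SE 0.16) without dnFGFR OS 5. Foxc1, a forkhead factor of meninges and vessel walls, was instead lowest in control OS mice, with control SS at 7.28 to 8.62 CPM, control OS at 5.48 to 6.16 CPM, and dnFGFR mice of both housings between 6.29 and 8.69 CPM, and its interaction was 0.42 (SE 0.14). Mcidas, a coactivator of the multiciliated cell program, was near 1 CPM, at 1.00 to 2.05 CPM in control SS, 0.625 to 0.967 CPM in control OS, 0.464 to 1.32 CPM in dnFGFR SS and 0.771 to 1.72 CPM in dnFGFR OS mice, and had an interaction of 1.59 (SE 0.43). The interaction without dnFGFR OS 5 was 0.40 for Foxc1 and 1.68 for Mcidas.

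Htr5a, the serotonin 5-HT5A receptor gene, was the member of this direction whose dnFGFR groups stood apart. It was measured at 17.3, 16.2, 16.7, 14.4 and 18.2 CPM in control SS mice, 15.3, 13.4, 16.01, 14.8 and 16.6 in control OS mice, 16.1, 14.7, 15.5, 14.8 and 16.03 in dnFGFR SS mice, and 17.5, 18.6, 19.2, 18 and 17.9 in dnFGFR OS mice. Each of the 5 dnFGFR OS mice lay above each of the 5 dnFGFR SS mice, while the control groups overlapped. The interaction was small, 0.36 (SE 0.10, 95% interval 0.15 to 0.58), and 0.38 (SE 0.11) without dnFGFR OS 5. The remaining 6 genes leading in this direction had interactions of 0.40 for Slc46a3, 0.42 for Fggy, 0.49 for Zfp867, 0.49 for Zfp51, 1.06 for Oip5 and 1.09 for Eqtn. In the same order, the values without dnFGFR OS 5 were 0.37, 0.40, 0.42, 0.52, 0.86 and 0.95. Slc46a3 encodes a lysosomal transporter, and Zfp867 and Zfp51 encode zinc finger proteins.

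**Figure D2:**
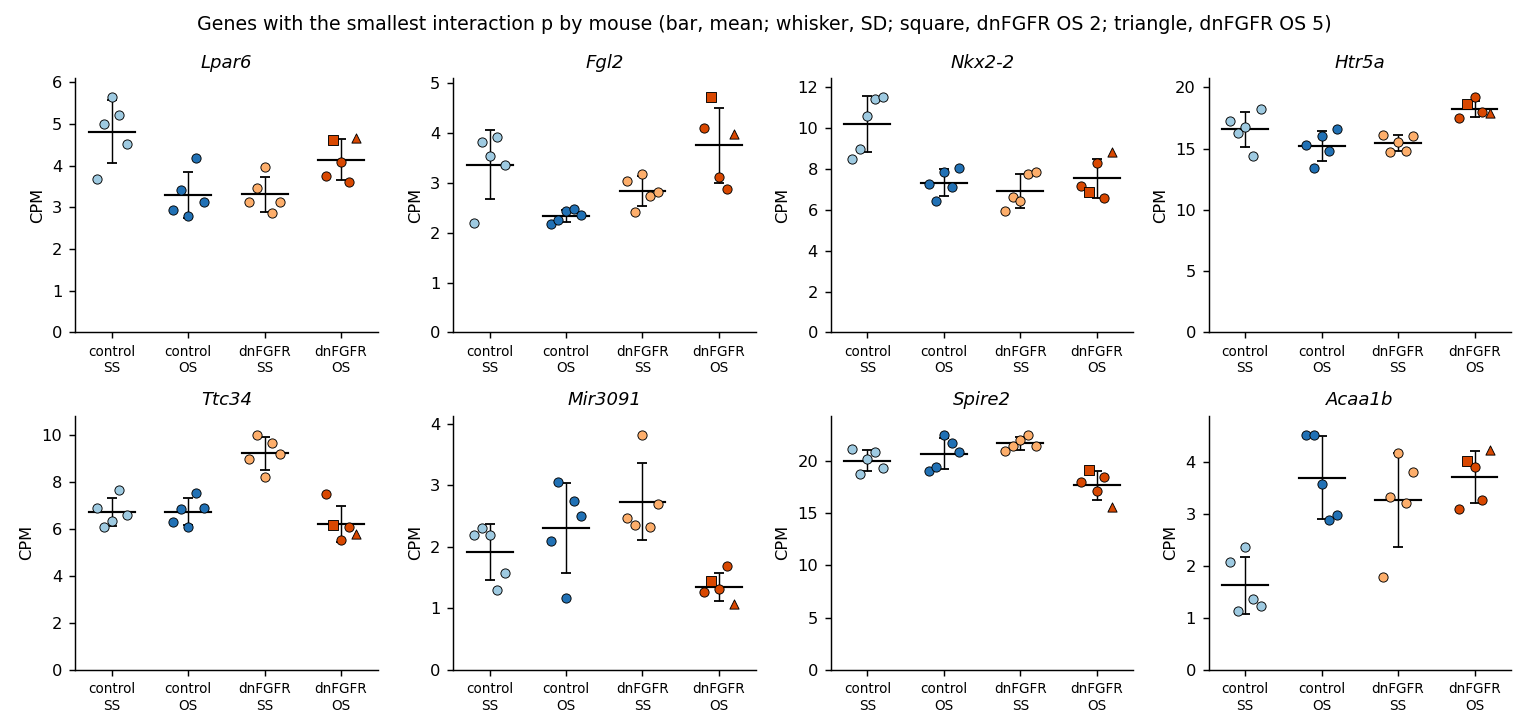
CPM (y axis, from 0) of 8 leading genes in each mouse by group (x axis), with the mean as a bar and the SD as a whisker; the square is dnFGFR OS 2 and the triangle dnFGFR OS 5. Nkx2-2 and Acaa1b have control SS and OS mice that do not overlap, while Htr5a, Ttc34, Mir3091 and Spire2 have dnFGFR SS and OS mice that do not overlap.

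In the negative direction, Ttc34, which encodes a tetratricopeptide repeat protein, had the smallest p. It was measured at 6.92, 6.099, 6.36, 7.65 and 6.601 CPM in control SS mice, 6.28, 6.87, 6.07, 7.53 and 6.902 in control OS mice, 8.98, 10.03, 8.24, 9.67 and 9.199 in dnFGFR SS mice, and 7.48, 6.16, 5.51, 6.102 and 5.77 in dnFGFR OS mice. The dnFGFR SS mice stood above the other 15 mice, which shared a range from 5.51 to 7.65 CPM. The housing difference was 0.00 in control mice and -0.57 in dnFGFR mice, and the interaction was -0.57 (SE 0.14, 95% interval -0.87 to -0.28), or -0.54 (SE 0.14) without dnFGFR OS 5. The end of Ttc34 (chromosome 4, 154837459 to 154867127) overlaps the antisense gene Gm13112, which had -0.18 (SE 0.21).

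Mir3091 is a microRNA gene on chromosome 2 (180257536 to 180257611, plus strand) that lies, in all 4 annotated transcripts of Rps21, in an intron of that ribosomal protein gene. Its sequence is shown because it defines which reads could be counted: the hairpin from the RefSeq table for GRCm38.p6, with both mature arms in capitals, and the mature arms, with the seed, bases 2 to 8, in capitals.
Mir3091 hairpin: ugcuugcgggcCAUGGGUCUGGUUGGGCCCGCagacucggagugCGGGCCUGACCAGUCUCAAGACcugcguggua
mmu-miR-3091-5p: cAUGGGUCugguugggcccgc
mmu-miR-3091-3p: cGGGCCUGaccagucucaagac
mmu-miR-2861: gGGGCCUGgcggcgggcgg
The hairpin spans 76 bases and the libraries were made from total RNA with the NEBNext Ultra RNA kit, per the labels. The count is of reads over this interval, from whichever transcript they came, and is not a measure of mature miRNA. The interval was covered at 2.196, 2.31, 2.19, 1.29 and 1.58 CPM in control SS mice, 2.08, 3.05, 1.16, 2.74 and 2.5 in control OS mice, 2.46, 2.36, 3.82, 2.32 and 2.69 in dnFGFR SS mice, and 1.26, 1.44, 1.305, 1.68 and 1.07 in dnFGFR OS mice. Every dnFGFR OS mouse lay below every dnFGFR SS mouse, and control mice of both housings overlapped. The interaction was -1.28 (SE 0.33, 95% interval -1.97 to -0.60) and -1.21 (SE 0.34) without dnFGFR OS 5, while the host Rps21 had -0.32 (SE 0.23). Of the mature miRNAs in the RefSeq table, mmu-miR-2861 alone shares the seed of mmu-miR-3091-3p. Its gene, Mir2861, had an interaction of -0.89 (SE 0.36), or -0.65 (SE 0.25) without dnFGFR OS 5.

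Spire2, an actin nucleator of vesicle transport, was measured at 21.1, 18.7, 20.2, 20.8 and 19.3 CPM in control SS mice, 19.03, 19.4, 22.5, 21.8 and 20.9 in control OS mice, 20.9, 21.4, 22.1, 22.5 and 21.5 in dnFGFR SS mice, and 17.96, 19.1, 17.2, 18.5 and 15.6 in dnFGFR OS mice. The dnFGFR OS mice were below all dnFGFR SS mice, and their range overlapped the control mice only at its upper end. The interaction was -0.34 (SE 0.10, 95% interval -0.54 to -0.14), and -0.30 (SE 0.09) without dnFGFR OS 5. Zswim8, the substrate receptor of a ubiquitin ligase that directs miRNA decay, had a narrower difference at a higher level, with 141 to 160 CPM in dnFGFR SS against 118 to 134 CPM in dnFGFR OS mice and 128 to 147 CPM in the controls, and an interaction of -0.24 (SE 0.07). D130020L05Rik, with an interaction of -0.42 (SE 0.13), was the other gene of this direction whose dnFGFR groups did not overlap. Without dnFGFR OS 5 Zswim8 had -0.22 and D130020L05Rik -0.38.

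Acaa1b, a peroxisomal thiolase of fatty acid oxidation, was set by the control mice instead. Its levels were 2.08, 1.13, 2.36, 1.37 and 1.22 CPM in control SS mice, 4.53, 4.53, 3.58, 2.89 and 2.98 in control OS mice, 1.797, 3.33, 4.19, 3.21 and 3.82 in dnFGFR SS mice, and 3.096, 4.03, 3.91, 3.28 and 4.24 in dnFGFR OS mice. Control SS mice were below all control OS mice, and both dnFGFR groups lay mostly within the control OS range. The housing difference was 1.19 in control mice and 0.18 in dnFGFR mice, giving -1.01 (SE 0.32, 95% interval -1.66 to -0.35) and -1.05 (SE 0.33) without dnFGFR OS 5. Fam83d, a spindle-associated gene, had control SS values of 1.504 to 3.89 CPM and control OS values of 5.43 to 8.24 CPM, with dnFGFR mice spread from 2.57 to 13.6 CPM and an interaction of -1.80 (SE 0.49), or -1.64 without dnFGFR OS 5. The other genes leading in this direction had interactions of -0.38 for Tob2, -0.27 for Dnm2, -0.77 for Gm13305, -0.66 for 1700101I11Rik and -0.41 for Zfhx2, each with the same sign without dnFGFR OS 5. Dnm2 encodes the GTPase dynamin 2, which cuts endocytic vesicles from the membrane, and Tob2 an antiproliferative protein.

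Leaving out one of the outlying libraries changed which genes led. Without dnFGFR OS 5 the leaders that were not among the 24 included Slc25a29, a mitochondrial carrier of basic amino acids, at 0.47 (SE 0.13), against 0.38 in all mice. Without dnFGFR OS 2 they included Jam2, an adhesion protein of cell junctions, at 0.31 (SE 0.07), Nab2, a corepressor of EGR factors, at -0.69 (SE 0.16), and Ankrd37 at -0.64 (SE 0.14). In all 20 mice these 3 genes had 0.20, -0.49 and -0.40. None of the genes passed correction under either choice.

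The group that set the interaction was not the same for all genes. Among the 329 genes lower at p below 0.05, the lowest group mean was that of dnFGFR OS mice in 250 and of control SS mice in 79, and the highest that of dnFGFR SS mice in 175 and of control OS mice in 134. Among the 266 higher genes, the highest mean was that of dnFGFR OS mice in 180 and of control SS mice in 85. Over all genes tested, dnFGFR OS mice held the lowest mean in 34.5% and the highest in 29.7%. The sign of the interaction by which the 595 genes were picked largely fixes which groups can be lowest and which highest. Their counts are therefore a description and cannot be weighed against the shares over all genes. Without dnFGFR OS 5, the 329 genes had their lowest mean in dnFGFR OS mice in 227 and in control SS mice in 102. Housing differences of opposite sign in the 2 genotypes were found for 481 of the 595 genes, but only 5 had a p below 0.05 in each genotype, and the choice by the interaction favors opposite signs.

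**Figure D3:**
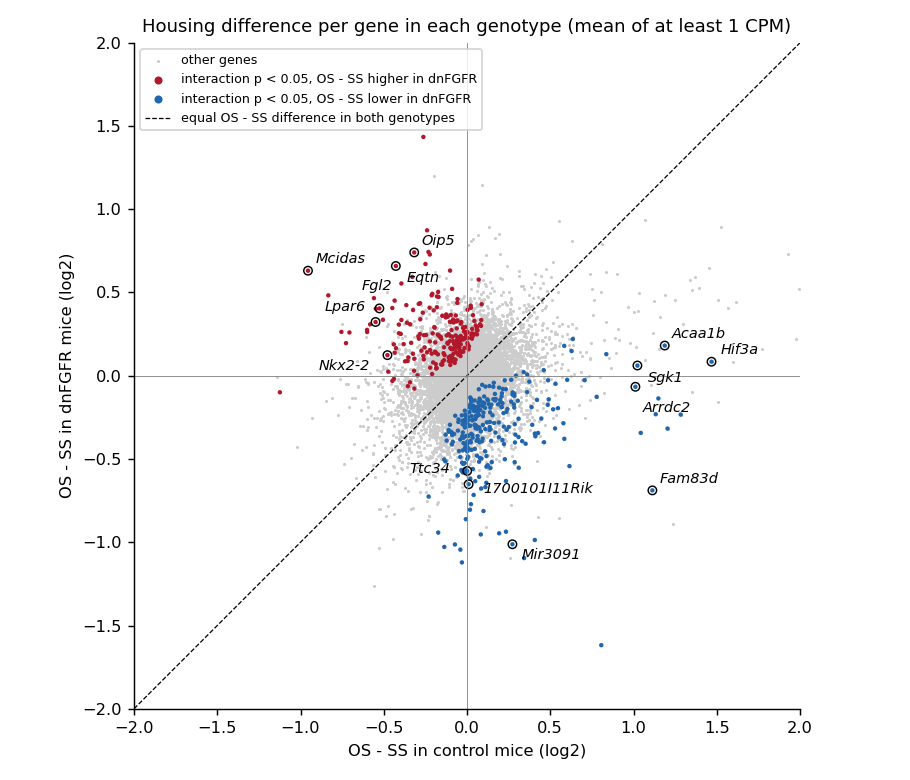
Log2 OS to SS difference in control mice (x axis) and dnFGFR mice (y axis) for each gene of at least 1 CPM; genes with an unadjusted interaction p below 0.05 are colored by direction, the dashed line marks equal differences, and 1 gene lies outside the axes. Sgk1, Hif3a, Arrdc2 and Acaa1b lie to the right, near 0 in dnFGFR mice, while Ttc34 and 1700101I11Rik lie below the center, near 0 in control mice.

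Among the pathway lists, that of glucocorticoid-induced genes was the one whose members all had the same sign. The list holds genes known to be raised by the glucocorticoid receptor, the nuclear receptor for corticosterone, and 24 of its 25 genes were tested (Lcn2 was too low). The interaction was negative for all 24, with a median of -0.46 against 0.00054 for all genes tested, and 6 had an unadjusted p below 0.05, each lower (1.89% of all genes). No member passed correction. In control mice the OS to SS difference was positive for 24 of 24, with a median of 0.45 and 14 at p below 0.05 (2.22% of all genes were higher at that level). In dnFGFR mice it was positive for 16 of 24, with a median of 0.07 and 0 higher at p below 0.05 (5.16% of all genes). Without dnFGFR OS 5 the interaction was negative for all but 2, with a median of -0.23, and 4 were lower at p below 0.05 (1.32% of all genes). In dnFGFR mice the difference was then positive for 22 of 24, with a median of 0.22 and 2 higher at p below 0.05 (4.32% of all genes).

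Averaged over the 24 genes, the mean log2 CPM was 4.64, 4.73, 4.77, 4.55 and 4.47 in control SS mice, 5.196, 5.31, 5.02, 5.18 and 5.15 in control OS mice, 5.29, 5.54, 5.72, 4.56 and 4.79 in dnFGFR SS mice, and 5.51, 5.41, 5.56, 5.33 and 4.33 in dnFGFR OS mice. The control SS mice were low without exception and the control OS mice high without exception. In each dnFGFR group the mice fell into a high and a low set: SS replicates 4 and 5 and OS replicate 5 lay in or below the control SS range or just above it, and the other 7 dnFGFR mice lay within or above the control OS range. dnFGFR SS 5 and dnFGFR OS 5 were collected on the same date. The part of the date in the high and low sets was not tested. Control SS mice had the lowest group mean for 23 of the 24 genes (22.9% of all genes). dnFGFR OS mice had the highest for 11 (29.7% of all genes), and for 20 without dnFGFR OS 5 (29.3%).

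Sgk1, the serum and glucocorticoid regulated kinase, was the most abundant of the 6. Its levels were 168, 179, 135, 85.6 and 75.1 CPM in control SS mice, 203, 289, 283, 270.2 and 259 in control OS mice, 257, 287, 305, 112 and 186 in dnFGFR SS mice, and 263, 243, 309, 286 and 95.5 in dnFGFR OS mice. The housing difference was 1.02 in control mice and 0.06 in dnFGFR mice, the interaction -0.96 (SE 0.40, 95% interval -1.79 to -0.13), and without dnFGFR OS 5 -0.75 (SE 0.34). Hif3a, a hypoxia-inducible factor subunit raised by glucocorticoids, had 5.08, 6.81, 9.83, 4.77 and 5.33 CPM in control SS mice, 22.4, 18.3, 11.95, 19.5 and 15.9 in control OS mice, 24.3, 30.2, 32.6, 8.78 and 5.904 in dnFGFR SS mice, and 32.1, 17.99, 28.8, 22.6 and 6.29 in dnFGFR OS mice. Its interaction was -1.38 (SE 0.56, 95% interval -2.55 to -0.22), or -1.14 (SE 0.50) without dnFGFR OS 5. For both genes no control SS mouse reached the lowest control OS mouse, and the dnFGFR groups overlapped. The low end of the dnFGFR OS range was dnFGFR OS 5 alone, and without it Sgk1 ran from 243 to 309 CPM and Hif3a from 17.99 to 32.1 CPM in OS mice. Arrdc2, an arrestin-domain gene, had an interaction of -1.08 (SE 0.41) and -0.86 (SE 0.34) without that mouse. Ddit4, an inhibitor of mTORC1 signaling, had -0.75 (SE 0.35) and -0.54 (SE 0.26), Nfkbia, the NF-kappa-B inhibitor, -0.51 (SE 0.24) and -0.36 (SE 0.20), and Errfi1, a feedback inhibitor of the EGF receptor, -0.29 (SE 0.14) and -0.22 (SE 0.13). Fkbp5, a cochaperone of the receptor that dampens it, had an interaction of -0.12 (SE 0.22), and Tsc22d3, also known as Gilz, -0.57 (SE 0.33).

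**Figure D4:**
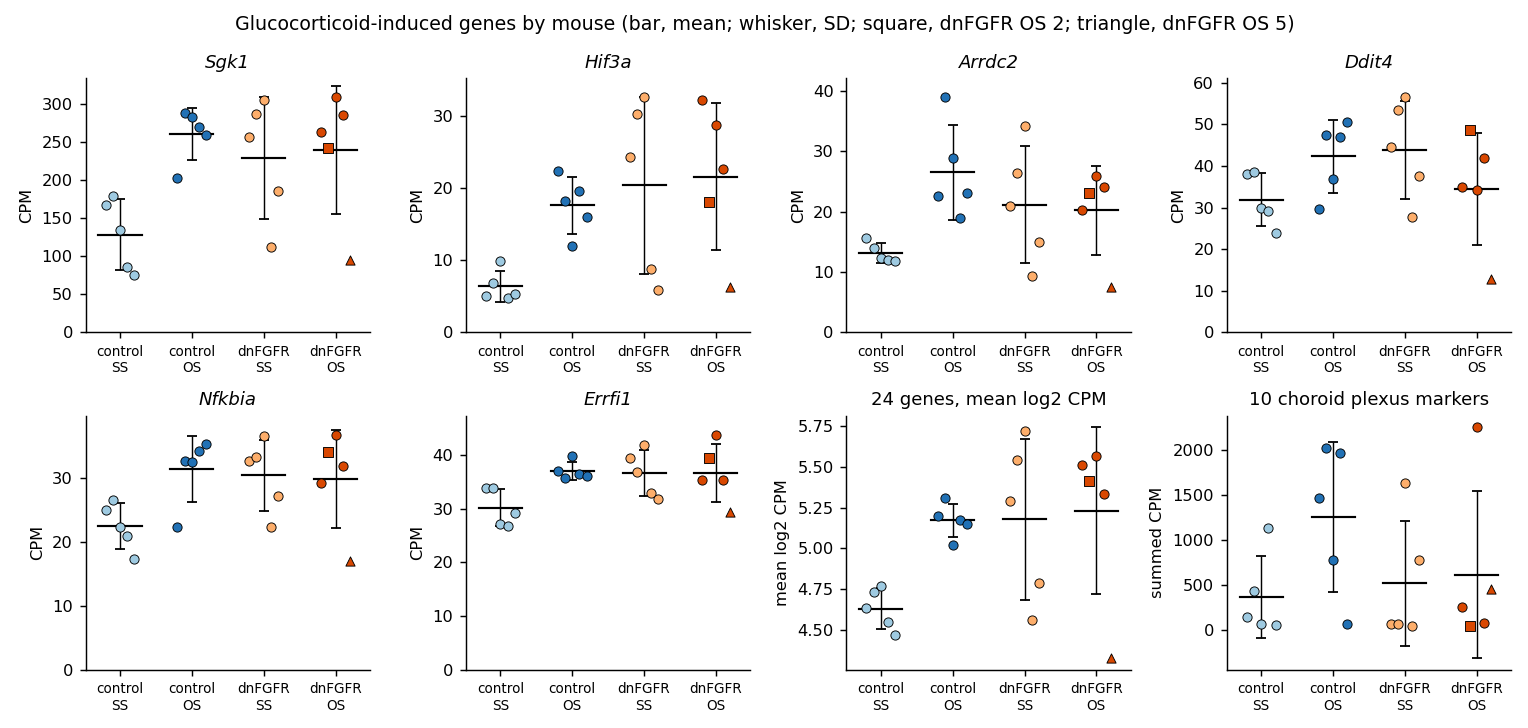
CPM by mouse and group of the 6 glucocorticoid-induced genes with p below 0.05, the mean log2 CPM of the 24 genes tested, and the summed CPM of 10 choroid plexus markers; bars are means, whiskers SD, the square dnFGFR OS 2 and the triangle dnFGFR OS 5. Control SS mice are low (mean log2 CPM 4.47 to 4.77) and control OS mice higher (5.02 to 5.31), while dnFGFR mice of either housing fall on both sides.

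Because the OS to SS difference of these genes had the same sign in control mice, their RefSeq promoter windows (250 bases before to 50 after a start, GRCm38.p6) were searched for the palindrome bound by the glucocorticoid receptor, AGAACA and TGTTCT with any 3 bases between them, which reads the same on both strands. Windows were found for 20 of the 24 genes, 32 windows in all, and 1 held it, against 3 of 32851 windows in the whole table (0.00913%). That window belongs to Sgk1 and is shown for this reason (chr10:21993640-21993939, plus strand, at one of several annotated starts), with the palindrome in capitals, beginning 189 bases before the start.
Sgk1 promoter window: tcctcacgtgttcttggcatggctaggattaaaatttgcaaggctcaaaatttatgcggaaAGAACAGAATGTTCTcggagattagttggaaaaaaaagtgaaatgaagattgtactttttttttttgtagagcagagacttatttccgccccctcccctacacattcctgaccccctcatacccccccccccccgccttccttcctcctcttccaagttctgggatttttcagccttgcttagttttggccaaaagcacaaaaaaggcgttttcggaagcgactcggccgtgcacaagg
The shorter core, ACA and TGT with any 3 bases between them, which the longer palindrome contains, was in windows of 3 of these 20 genes (Map3k6, Mt1 and Sgk1) and of 7.9% of all genes in the table. The genes were listed for known induction by this receptor, so a match does not depend on these mice and does not bear on the housing difference. A match is a description of the letters, and receptor binding was not measured.

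The 10 choroid plexus epithelium markers had a negative interaction in 10 of 10, with a median of -0.85 and none at p below 0.05, and a median OS to SS difference of 1.38 in control mice. Their summed CPM ran from 53.2 to 1132 in control SS, 69.1 to 2023 in control OS, 50.7 to 1637 in dnFGFR SS and 41.5 to 2258 in dnFGFR OS mice. The sum varied widely among the mice of each group. By mouse it was 144, 430, 62.6, 1132 and 53.2 CPM in control SS mice. In control OS mice, all high in the glucocorticoid-induced genes, it was 1475, 2023, 776, 1977 and 69.1 CPM. Of the dnFGFR mice high in these genes, SS 3 and OS 3 had 1637 and 2258 CPM of the choroid plexus markers. SS 1, SS 2, OS 1, OS 2 and OS 4 had 67.8, 70.6, 259, 41.5 and 76.2 CPM. Of those low in these genes, SS 4, SS 5 and OS 5 had 50.7, 782 and 458 CPM. The part of choroid plexus tissue in the other differences was not tested.

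The remaining pathway lists had medians nearer to that of all genes. Of the 14 tested genes that add or supply glucuronic acid (18 listed), 4 had a positive interaction, the median was -0.29 (-0.29 without dnFGFR OS 5), and 2 were lower at p below 0.05 (1.89% of all genes), against 0 without dnFGFR OS 5 (1.32%). The 2 were Ugt1a5, with -0.41 (SE 0.20), and Ugt1a7c, with -0.40 (SE 0.19); the Ugt1a genes share their last exons and thus most reads, so they are not separate measurements. In control mice the OS to SS difference was positive for 12 of the 14, with a median of 0.53. There 9 were higher at p below 0.05 (2.22% of all genes). In dnFGFR mice it was positive for 14 of 14, with a smaller median of 0.20, and 0 were higher at p below 0.05 (5.16%).

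Maff, a small Maf transcription factor, stood out among 26 immediate early genes (median -0.09). Its levels were 1.68, 2.09, 0.694, 0.894 and 0.816 CPM in control SS mice, 2.54, 2.94, 2.498, 3.38 and 2.84 in control OS mice, 1.83, 3.903, 4.67, 2.35 and 2.32 in dnFGFR SS mice, and 2.77, 2.59, 2.46, 3.61 and 0.641 in dnFGFR OS mice. Every control SS mouse lay below every control OS mouse, and the dnFGFR groups overlapped. The interaction was -1.52 (SE 0.49, 95% interval -2.55 to -0.49) and -1.28 (SE 0.41) without dnFGFR OS 5. Of the 17 clock genes tested, Cry2, a repressor of the clock, had -0.15 (SE 0.07), and the list median was -0.04 (-0.02 without dnFGFR OS 5).

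Genes of protein synthesis and energy supply depended on dnFGFR OS 2 and OS 5, the highest and lowest of their group in mean log2 CPM. The 2 mice had 7.24 and 6.38 for the ribosomal protein genes and 6.64 and 5.67 for the oxidative phosphorylation genes. The 82 cytosolic ribosomal protein genes had a median interaction of -0.07, with 1 higher (Rps12, 0.28 (SE 0.13)) and 0 lower at p below 0.05, and without dnFGFR OS 5 the median was -0.0048. Without dnFGFR OS 2 the median was -0.21 and 20 were lower. The 75 nuclear oxidative phosphorylation genes had -0.11, -0.03 and -0.24 in the same order, with 1, 1 and 27 lower, and Ndufa12, a subunit of complex I, had -0.87 (SE 0.33) over the 20 mice. In dnFGFR OS 5 Ndufa12 had 11.4 CPM, against 21.5 to 47.3 CPM in the rest of its group. At p below 0.05, 6.35% of all genes were lower without dnFGFR OS 2. Without both mice the list medians were -0.15 and -0.16, with 10 of 82 and 19 of 75 lower, against 754 of 17722 genes tested. With the trend of expression on GC content and transcript length removed, the medians over 20 mice were -0.00016 and -0.03.

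Chaperone genes had a median of 0.01 over 52 members, with Dnajb9, an endoplasmic reticulum cochaperone, at 0.24 (SE 0.08) and Cct6a, a subunit of the TRiC folding chamber, at 0.18 (SE 0.09). Without dnFGFR OS 5 Dnajb9 and Cct6a had 0.22 (SE 0.08) and 0.17 (SE 0.09), and the list median was 0.03. Of 44 glutamate receptor and scaffold genes 1 had p below 0.05, Nlgn2, a neuroligin of inhibitory synapses, at -0.26 (SE 0.11) and -0.19 (SE 0.09) without dnFGFR OS 5, where no member had p below 0.05. No gene had p below 0.05 among 28 GABA and glycine genes, 23 neuropeptide precursors or 29 interferon-stimulated and MHC class I genes, whose medians were 0.07, -0.12 and 0.08. Without dnFGFR OS 5 these medians were 0.04, 0.02 and 0.11, so that of the neuropeptide precursors changed sign. Of 26 preoptic and hypothalamic transcription factors Nkx2-2, given above, was the only one.

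The reproductive axis itself gave little. None of 12 tested genes of the GnRH, kisspeptin and neurokinin B system, 33 FGF receptors, ligands and feedback targets, 9 steroid receptors or 21 neurosteroid enzymes had an interaction p below 0.05, and the list medians were 0.07, -0.01, 0.06 and 0.07. Without dnFGFR OS 5 the medians were 0.03, -0.02, -0.07 and 0.10, so that of the steroid receptors changed sign, and again no member had p below 0.05. Gnrh1, the precursor of GnRH, was low in a block of this size, at 1.77, 1.401, 2.53, 2.01 and 2.37 CPM in control SS mice, 1.87, 2.31, 1.504, 2.44 and 1.93 in control OS mice, 1.45, 1.22, 1.05, 1.22 and 1.397 in dnFGFR SS mice, and 1.402, 1.85, 0.949, 1.82 and 1.07 in dnFGFR OS mice. The SS and OS values overlapped in each genotype, with an interaction of 0.17 (SE 0.30, 95% interval -0.46 to 0.80) and 0.26 (SE 0.30) without dnFGFR OS 5. Fgfr1 ran from 81.6 to 102 CPM in all 20 mice, and its interaction was bounded closely, at -0.03 (SE 0.08, 95% interval -0.21 to 0.14); the transgene derives from the same gene but is confined to a rare cell type, and whether its reads were counted was not tested.

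Markers of blood vessel and border cells had positive medians. All 9 pericyte and smooth muscle markers had a positive interaction, with a median of 0.29, against 8 of 9 and 0.20 without dnFGFR OS 5 and 6 of 9 and 0.17 within collection dates. For 6 of these 9 markers control SS mice had the highest group mean (24.6% of all genes), and for 1 dnFGFR OS mice did (29.7%). Myh11, smooth muscle myosin, had 0.50 (SE 0.22) and 0.48 (SE 0.23) without dnFGFR OS 5. The 10 border macrophage and leukocyte markers had 0.45 (0.66 without dnFGFR OS 5), 8 of them positive. At p below 0.05, 3 were higher (1.52% of all genes), and 3 without dnFGFR OS 5 (1.27%). The 3 over 20 mice were H2-Aa, an MHC class II chain at 0.634 to 1.96 CPM, with 1.11 (SE 0.39), and Itgal and Lyve1, under 1 CPM. Within collection dates the 10 markers had a median of 0.22, with 0 at p below 0.05. Their summed level ran from 16.7 to 22.5 CPM in control SS, 17.2 to 19.9 in control OS, 16.1 to 21.2 in dnFGFR SS and 16.3 to 22.7 in dnFGFR OS mice. Lyz2, the lysozyme of myeloid cells and one of the leading genes without dnFGFR OS 5, had 0.81 (SE 0.20) there and 0.65 (SE 0.25) in all mice. Fgl2 and Foxc1 above are also expressed by cells of these kinds, and how much of their difference came from such cells was not tested.

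Markers of the parenchyma had medians nearer to 0. These were 0.07 for neurons, 0.13 for astrocytes, 0.14 for microglia, 0.04 for oligodendrocytes and -0.02 for their precursors. Without dnFGFR OS 5 they were 0.03 for neurons, 0.09 for astrocytes, 0.12 for microglia and 0.0029 for oligodendrocytes. Within collection dates they were 0.03 for neurons, 0.24 for astrocytes, 0.18 for microglia and 0.08 for oligodendrocytes. Those of astrocytes and microglia were then not nearer to 0 than that of pericyte and smooth muscle markers. In that fit 3 of 13 microglia markers were higher at p below 0.05, against 177 of 17824 genes tested. Striatal medium spiny neuron markers, which enter a preoptic block at its dorsal and lateral edges, had -0.09, with Ppp1r1b, a phosphatase inhibitor of these neurons, at -0.41 (SE 0.19) and -0.31 (SE 0.18) without dnFGFR OS 5, where no member had p below 0.05 and 10 of 10 were negative. Ependymal markers had -0.26, fibroblast markers 0.17, endothelial markers 0.21, and red cell markers 0.13 (-0.26 without dnFGFR OS 5).

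**Figure D5:**
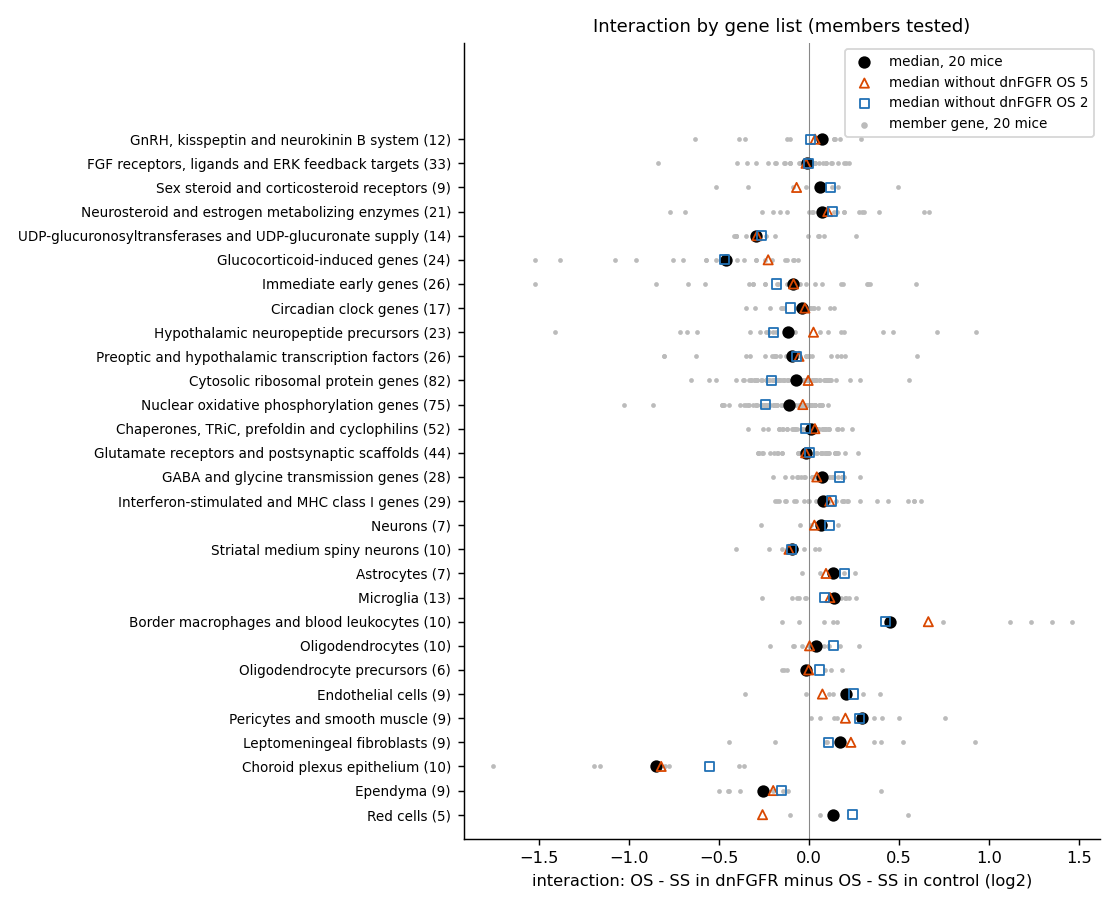
Interaction in log2 units (x axis) of each tested member (grey) of 29 gene lists (y axis, members tested in brackets), with list medians over 20 mice (black), without dnFGFR OS 5 (triangles) and without dnFGFR OS 2 (squares). The glucocorticoid-induced genes (median -0.46) and the choroid plexus markers (median -0.85) lie wholly left of 0, and pericyte and smooth muscle markers (median 0.29) right of it.

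Genes that the study had called between OS and SS dnFGFR mice were chosen on these libraries, so their interaction is not independent evidence. All 72 were tested. At an unadjusted p below 0.05, 9 were higher and 27 lower (1.52% and 1.89% of all genes), and none passed correction. The counts were 12 higher and 19 lower without dnFGFR OS 5 (1.27% and 1.32%), and 11 higher and 9 lower with the GC and length trend removed (2.22% and 1.46%), so that the tilt to lower values was not kept under that setting. In control mice 5 of the 72 were higher and 11 lower at that level (2.22% and 2.09% of all genes), and the control median was -0.07 against -0.29 in dnFGFR mice, where the list was chosen.

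The housing differences of the 2 genotypes share no mice and can be set side by side. Across 15288 genes of at least 1 CPM their Spearman correlation was 0.219, or 0.367 without dnFGFR OS 5 and 0.123 without dnFGFR OS 2, a description across genes, which are not independent. The interaction also followed base composition: its correlation with the GC content of transcripts was -0.42, and -0.241 without dnFGFR OS 5. Median GC content was 55.5% in the 329 lower genes and 45.8% in the 266 higher genes, against 49.9% for all genes with a value. In single libraries the correlation of expression deviations with GC content ran from -0.561, in dnFGFR OS 5, to 0.420, in dnFGFR SS 5. With the GC and length trend removed, 643 genes had p below 0.05, 388 higher and 255 lower, so that the balance of directions turned, and 417 of the 595 were among them.

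Collection dates differed between groups and no date held both genotypes, so date and genotype cannot be told apart. Dates with both housings of a genotype held, of the controls, 2 SS and 5 OS mice, and of the dnFGFR mice, 2 SS and 4 OS mice. With date as a block in these 13 mice, 0 genes passed and 467 had p below 0.05, 196 of them among the 595, and all 595 kept their sign. The 13 mice were among those on which the 595 were picked, which favors a kept sign. The glucocorticoid-induced genes had a median of -0.50 there, with 9 lower at p below 0.05, against 290 of 17824 genes tested. The 13 mice included dnFGFR OS 5, and the fit within dates was not run without it. Over all mice, leaving out dnFGFR OS 5 took the list median from -0.46 to -0.23.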

How the data were processed

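RNA from the preoptic area of 20 male mice was sequenced in paired reads. Per the study's methods, the authors aligned reads with HISAT2 to GRCm38, counted them per gene with Rsubread on RefSeq annotation and deposited raw counts; whether strand was used and how reads matching several genes were treated are not given in the sources used here. The other 20 columns of the deposited count table, from other mice, were not used. Genes were filtered by filterByExpr on the 4 groups and tested in edgeR 4.0.16 (R 4.3.3) with TMM scaling, the quasi-likelihood test over all 20 mice, and Benjamini-Hochberg adjustment (threshold 0.1). SE was the log2 difference divided by the square root of F, and intervals are 95%. CPM values are counts scaled to TMM library sizes. DESeq2 1.42.0 and limma 3.58.1 (voom) were alternatives, as were other scaling, filters, a GC content and length trend, a replicate block, collection dates and leaving out each mouse. The fit without both dnFGFR OS 2 and 5 was chosen after seeing the data. The test was checked on simulated counts with known changes, drawn for each gene on its own. The simulation held no outlying library and no GC trend, so it does not cover these features of the data.

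The comparison, gene lists and named genes were chosen with earlier results of these data known. Named genes were the 12 with the smallest interaction p in each direction at a mean of at least 1 CPM, members of the lists with p below 0.05 or the smallest p in each direction, the genes leading each housing difference or the interaction without dnFGFR OS 5 or 2, and Gnrh1 and Fgfr1. Neighboring genes, Mir2861, Fkbp5 and Tsc22d3 were added for context after their values were seen. Collection dates came from the study's supplementary sample list. Positions are GRCm38 (GENCODE), and sequences are RefSeq GRCm38.p6. The authors' own fold changes were not used. The p-values weigh a difference against the spread among mice, estimated in common over the 4 groups of 5.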

Additional observations from a re-analysis of the deposited data

Results flagged for a closer look

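Of 144 sets of 5 mice examined, 7 held a mouse far from the other 4 by Dixon's criterion (critical value 0.71), where chance gives about 1 in 20. At that rate 7 of 144 is about what chance gives, so the sets are listed as a description. The criterion did not flag dnFGFR OS 5 on the first principal component, where dnFGFR OS 2 lay at the other end of the group. On the first principal component control SS 1 lay at -7.79, the others of its group between -2.91 and -1.71. Control OS 3 had 16.6 CPM of 1700101I11Rik (others 22.5 to 24.8), and control OS 1 had 22.4 CPM of Nfkbia (others 32.5 to 35.4). Among dnFGFR SS mice, replicate 5 had 1.32 CPM of Mcidas (others 0.464 to 0.651), replicate 3 had 8.69 CPM of Foxc1 (others 6.29 to 6.64) and 3.82 CPM of Mir3091 (others 2.32 to 2.69), and replicate 4 had reads in 19234 genes (others 19570 to 19659). The causes were not tested.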

How the results depend on the processing

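The adjusted count for the interaction was 0 under each of the 32 alternatives. Of 2110 values of 66 named genes, 2100 kept their sign and side of the threshold. No value lay past the threshold, and the genes were chosen with results of these mice known, which favors a kept sign. Gnrh1 turned to -0.29 within collection dates with date as a block and to -0.14 in the same mice without it. Fgfr1, near 0, turned to 0.0350 with voom, 0.0180 with the GC and length trend removed, 0.0198 with that and the replicate block, and 0.0475 without dnFGFR OS 2 and 5, and ran from -0.0718 to 0.0104 with single mice left out. The unadjusted interaction count of 595 was 1502 with voom, 319 in the date-matched mice without a block and 1120 without dnFGFR OS 2 and 5, and ran from 426 to 1987 with single mice left out. The adjusted housing count in control mice was 9 with DESeq2 and 20 with voom, and 0 to 0 with single mice left out. In dnFGFR mice it was 275 with DESeq2, 58 with voom, 11 with at least 10 counts in every mouse, 1 in the date-matched mice without a block, 7 without dnFGFR OS 2 and 5, and 0 to 1523 with single mice left out (1523 without dnFGFR OS 2, 242 without dnFGFR OS 4). The replicate block gave 0 adjusted and 548 unadjusted interaction genes; same-numbered mice had a median correlation of -0.0276 (-0.235 to 0.259), so the numbers do not pair mice. The causes were not tested. Genes under 1 CPM were limited by depth.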
